A study of Mus musculus with 4 samples.

Results

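The cells described here are thymic invariant natural killer T (iNKT) cells that carried the RNA of early precursors but no detected Cd24a, the gene of the surface protein CD24 that marks stage 0, the earliest iNKT stage. They are called Cd24a-zero transitional cells below. The name stands for the rule, and 0 UMIs of Cd24a does not show that a cell had left stage 0. The rule kept cells with at least 500 and under 4100 detected genes, at least 1000 unique molecular identifiers (UMIs, each counting 1 captured RNA molecule) and under 6% of UMIs from mitochondrial genes. Of those it took cells with 0 UMIs of Cd24a and of Nkg7, a gene of cytotoxic granules, at least 4 of 8 early genes detected (Nrgn, Slc29a1, Lef1, Marcksl1, Tubb2b, Myb, Siae and Gm43352), and fewer than 2 of 6 division genes detected (Top2a, Birc5, Ccnb2, Ube2c, Rrm2 and Pclaf). It selected 1457 of 19647 kept cells, which is 7.42%.

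The cells came from 4 single-cell RNA libraries, each from the thymus of 1 mouse aged 8 to 9 weeks. There were 2 C57BL/6 mice and 2 mice whose genotype label is Hivep3 KO (Hivep3-/- below, backcrossed to C57BL/6), and all were untreated. Cells that bound the PBS57-loaded CD1d tetramer, which stains the iNKT receptor, were sorted and mixed in equal parts of CD44low and CD44high cells, so the mixing sets part of every share given below. The label gives a whole-body genotype and the sources used here do not say which part of Hivep3 the allele lacks. Where 4 values are listed C57BL/6 comes first and Hivep3-/- second, each with replicate 1 before 2. With 2 mice a group, the gene tests draw their estimate of spread from many genes together. A small p-value therefore does not show by itself that the mice of a group agreed, and values per library are given for that reason.

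iNKT cells arise in the thymus from double positive thymocytes that are selected by CD1d on other thymocytes. Selection gives a strong T cell receptor signal that induces Egr2, and Egr2 in turn is needed for PLZF, the transcription factor encoded by Zbtb16 that directs iNKT cells to their innate effector programme. Cells then lose CD24, divide, and pass through precursors that make interleukin 4 before they become iNKT1, iNKT2 or iNKT17 cells. Hivep3 encodes a large zinc finger protein that can bind DNA sites of the kappaB type.

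Depth differed between libraries, with a median of 4596 to 6833 UMIs per kept cell, and the transitional cells were deeper, with library medians of 8142, 10513, 8257 and 7718. Library pairs shared 26 to 58 barcodes, and 0 to 2 of them were transitional cells. C57BL/6 replicate 1 expressed Xist and the other 3 libraries expressed Y-linked genes, so sex differed within the C57BL/6 group. C57BL/6 replicate 1 also stood apart in Trac, the constant gene of the receptor alpha chain, at 79.0 CPM in its transitional cells against 143, 204 and 197 in the other 3 libraries. CPM here is UMIs of a gene per 1000000 UMIs of the summed cells. In the transitional cells of all 4 libraries Rag2, Lyz2 and Siglech, which define double positive thymocytes, myeloid cells and plasmacytoid dendritic cells, were at 0 UMIs, and the B cell gene Ms4a1 was at 0 or 1. Over the whole lists, 4 to 6 of 8 double positive thymocyte markers had a UMI with summed levels of 7.9 to 24.5 CPM, the B cell markers had 16.9 to 26.8, and 1 to 3 of 6 myeloid markers had a UMI with 122 to 150. Gamma-delta T cell markers are given with the comparisons below.

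The values that chose the cells are given as a description. Among the transitional cells Lef1, a transcription factor of early T cells, was detected in 96.0% to 99.4% of cells over the 4 libraries, Nrgn in 87.4% to 92.6%, the nucleoside transporter Slc29a1 in 84.9% to 92.6% and Tubb2b in only 19.2% to 24.7%. Gm43352 (chr3:131109026-131112090, minus strand, mm10) is annotated as antisense to Lef1 (chr3:131110471-131224356, plus strand). It shares 1620 bases with Lef1 on the opposite strand, so these 2 early genes lie at a single locus. Just inside the rule, 439 cells had 4 early genes, and 128 had all 8. Just outside it, 592 cells that met every other criterion had 3 early genes. Relaxing the other limits in turn would have added 143 cells with 1 Cd24a UMI, 165 with 1 Nkg7 UMI, or 127 with 2 division genes. Since 143 of the 247 Cd24a-positive cells that met the other criteria held a single Cd24a UMI, the border at 0 depends on depth.

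The first comparison asked how large this population was in each genotype. Transitional cells made up 7.69% and 4.44% of kept cells from C57BL/6 mice against 8.20% and 8.69% of those from Hivep3-/- mice. The means were 6.06% ± 2.30 (SD, n = 2) and 8.44% ± 0.345, and the exact permutation test gave p = 0.333 (two-sided), the smallest value that 2 libraries against 2 allow. The difference of 2.38 percentage points was smaller than the gap between the C57BL/6 libraries. With at least 3 early genes in place of 4, the groups overlapped.

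The early cells themselves were split differently by genotype. Of the non-dividing early cells, those with and without Cd24a together, the Cd24a-zero cells made up 93.9% and 89.0% in the C57BL/6 libraries against 80.2% and 78.7% in the Hivep3-/- libraries. Cd24a-positive precursors were 36 and 20 cells (0.498% and 0.548% of kept cells) in C57BL/6 and 93 and 98 cells (2.02% and 2.35%) in Hivep3-/-. Neither pair of groups overlapped, and p was again 0.333 by the exact permutation test. After every cell was thinned to 2000 UMIs, Cd24a-zero cells remained the smaller part in Hivep3-/-, at a mean of 84.1% against 94.4%.

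Cells with at least 2 division genes but otherwise the same rule numbered 329 and 129 in C57BL/6 and 69 and 155 in Hivep3-/-. They were 37.2% and 44.3% of the Cd24a-zero early cells in C57BL/6 and 15.5% and 30.0% in Hivep3-/-. The groups did not overlap, with means of 40.8% and 22.7% (p = 0.333, exact permutation test). Dividing cells had median depths of 13613 and 17174 UMIs in C57BL/6 and 13356 and 14535 in Hivep3-/-. With every cell thinned to 2000 UMIs the share fell in both groups, to means of 11.0% and 10.1%, and the groups overlapped (p = 1, exact permutation test). The part of depth in the difference was not tested.

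**Figure D1:**
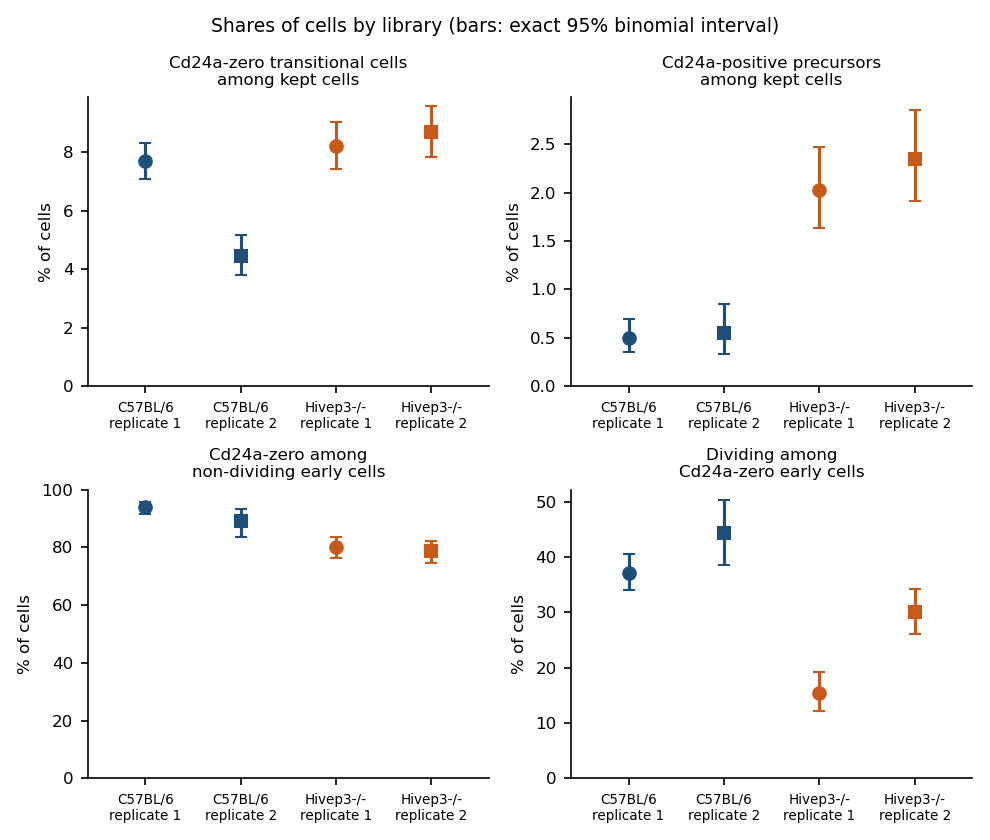
Percentage of cells (vertical axes) in each library (horizontal axes), with exact 95% binomial intervals that cover counting error only, for 4 shares. The Cd24a-positive precursors and the Cd24a-zero share of non-dividing early cells separate the genotypes, at 0.498% and 0.548% against 2.02% and 2.35% and at 93.9% and 89.0% against 80.2% and 78.7%; the share of transitional cells among kept cells was lowest in C57BL/6 replicate 2.

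The position of the transitional cells relative to stage 0 was examined next, against the 247 Cd24a-positive precursors, which met the same criteria except that they had at least 1 Cd24a UMI. UMIs were summed per library and set, and genes were tested with edgeR's quasi-likelihood test within mice, with Benjamini-Hochberg adjustment over all genes. Of 8454 genes tested, 489 were higher and 279 lower in the transitional cells at adjusted p under 0.05 (percent called 9.08, of which 5.78 higher and 3.30 lower). The sets were cut by a gate on Cd24a, so the calls describe how cells chosen in this way differ. Without Hivep3-/- replicate 1, 418 genes were called, and at 2000 UMIs per cell 193 were. The Cd24a-positive cells were shallower, with medians of 2642 to 4363 UMIs, and were few in C57BL/6.

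The stage 0 genes that the rule did not use were lower in the transitional cells. Of 15 such genes 13 fell and 2 (Cd28 and Jup) did not pass the test, with a median log2 difference of -0.60 against -0.00057 over all genes tested. The study named this list on these samples, so it is not independent evidence of direction. Itm2a, a membrane protein induced by T cell receptor signals, stood at 1565 and 1939.5 CPM in the Cd24a-positive cells from C57BL/6 and at 2182 and 1985 in those from Hivep3-/-, and at 411, 594, 1041 and 925 in the transitional cells. It was lower in all 4 mice (log2 -1.26 ± 0.09 SE, adjusted p = 3.1e-17). The claudin gene Cldn10 fell from 261, 271, 445 and 358 to 45.9, 50.7, 137 and 115 (log2 -1.76 ± 0.13, adjusted p = 3.9e-16). The other 11 that fell ranged from Ikzf2 (Helios) at -1.08, Cnn3 at -1.02, the transcription factor Sox4 at -0.87 and Ldhb at -0.82, through Tnfsf8, Gsn, Basp1, Tox and Cd81, to Hivep3 at -0.39 and Hmgn1 at -0.35. Of these, Hivep3 lost its call without C57BL/6 replicate 1 (-0.30), C57BL/6 replicate 2 (-0.34) or Hivep3-/- replicate 1 (-0.35), Basp1 and Cd81 without C57BL/6 replicate 1 or either Hivep3-/- library (-0.59 to -0.45 and -0.55 to -0.35), Gsn without C57BL/6 replicate 2 (-0.39) or Hivep3-/- replicate 1 (-0.77), Hmgn1 without either Hivep3-/- library (-0.35 and -0.31) and Tnfsf8 without Hivep3-/- replicate 2 (-0.64).

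Genes of the early response to T cell receptor signals fell as well. Of 12, 9 were lower, 1 was higher and 2 (Egr3 and Pdcd1) did not pass, with a median of -0.93. Nr4a1, an immediate early nuclear receptor gene, was at 361, 141, 987 and 198 CPM in the Cd24a-positive cells and at 60.6, 41.4, 193 and 64.0 in the transitional cells (log2 -2.02 ± 0.14, adjusted p = 3.7e-18), so that each mouse showed the fall. Nr4a3 (log2 -2.39), Ikzf3 (-1.61), Egr1 (-1.11), Egr2 (-1.04), Cd5 (-0.94), Nfatc1 (-0.93), Nab2 (-0.55) and Cd69 (-0.52) fell too. Id3, which restrains E proteins and is a target of Egr factors, was the exception, higher by log2 0.57 ± 0.09. Without Hivep3-/- replicate 1, Nr4a3 (-2.12) and Cd69 (-0.56) did not pass, and without C57BL/6 replicate 1 Cd69 (-0.41) did not.

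Genes of the next steps were higher. Of 12 tested, 8 rose and none fell, with a median of 1.15; this list too was named by the study on these samples. Zbtb16 rose from 130.4, 80.4, 53.6 and 54.1 to 316, 267, 189 and 160.0 CPM (log2 1.73 ± 0.16, adjusted p = 7.2e-13). Ccr7, the receptor that guides thymocytes toward the medulla, rose from 0, 10.0, 7.39 and 3.38 to 94.5, 78.1, 55.7 and 60.2 (3.72 ± 0.36). Plac8 (2.46), Il4 (1.86), the costimulatory receptor gene Icos (1.34), Lmo4 (0.98), Izumo1r (0.85) and Gata3 (0.44) were the others. The rise of Lmo4 was in C57BL/6, from 76.7 and 100.5 to 433 and 339 CPM (2.32 in these libraries alone), while in Hivep3-/- it went from 49.9 and 35.5 to 30.3 and 31.7 (-0.36, adjusted p = 0.54 by edgeR), and at 2000 UMIs per cell over all libraries it stood at -0.97 (adjusted p = 0.35). Lmo4 lost its call without C57BL/6 replicate 1 (0.42) or C57BL/6 replicate 2 (0.77), and Gata3 without C57BL/6 replicate 2 (0.40) or Hivep3-/- replicate 2 (0.32). Ccr9, Il13, Cd44 and Rgs1 did not pass the test, although Ccr9 rose in the C57BL/6 libraries alone (1.06, adjusted p = 0.014 by edgeR).

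Among other transcription factors of T cells, 5 of 14 rose and 4 fell. Id2, an inhibitor of E proteins that is high in innate-like lymphocytes, rose most by fold, from 84.4, 100.5, 64.7 and 72.7 CPM to 582, 569.9, 309.8 and 298 (log2 2.42 ± 0.15, adjusted p = 4.1e-20). Zbtb7b (ThPOK, 2.27), Runx3 (1.76), Maf (1.71) and Bcl11b (1.13) rose, whereas Tcf7 (-0.66), Ikzf1 (-0.58), Runx1 (-0.54) and Tcf3 (-0.47) fell. Without Hivep3-/- replicate 1, Zbtb7b (1.51), Maf (1.32) and all 4 that fell (-0.61 to -0.33) did not pass, and without Hivep3-/- replicate 2 Maf (1.64), Bcl11b (0.87), Runx1 (-0.51) and Tcf3 (-0.47) did not. Of 10 trafficking and adhesion genes 5 rose and none fell: Itgae (2.49), the chemokine receptor gene Cxcr6 (2.33), S1pr1 (2.02), Cd52 (1.88) and Itgb7 (1.80). Cd52, a small surface glycoprotein of lymphocytes, went from 1089.6, 543, 408 and 318 to 3027, 2816, 1095 and 1197 CPM. Itgae, the gene of integrin alpha E, was at 30.0 and 11.1 CPM in the C57BL/6 transitional cells against 38.4 and 10.0 in the precursors, a difference of -0.11 in these libraries alone, and at 38.3 and 21.7 in the Hivep3-/- transitional cells against 1.85 and 0 in the precursors. The size of its value thus rests on the Hivep3-/- precursors, which held 1 UMI and none. Without Hivep3-/- replicate 1 it did not pass (1.57).

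Receptor and survival genes moved in both directions. Of 14 genes of the receptor complex and its proximal signalling, Cd247 (the zeta chain, 0.61), the phosphatase gene Ubash3b (0.77) and Cd4 (1.26) rose, and Cd3e (-0.52), Ptprc (-0.65), Trbc1 (-0.49) and Trbc2 (-0.63) fell; Trbc1 and Trbc2 are near-identical, so the split of UMIs between them is uncertain. Of 6 genes of the SLAM receptors, which carry a second selection signal for iNKT cells, Slamf1 (-0.98) and Cd84 (-0.44) fell. Several of these calls rested on a library: Cd4 did not pass without C57BL/6 replicate 1 (1.13) or Hivep3-/- replicate 2 (1.09), Cd247 (0.44) and Ubash3b (0.57) without Hivep3-/- replicate 2, Trbc1 (-0.51) and Slamf1 (-0.58) without Hivep3-/- replicate 1, and Cd84 without C57BL/6 replicate 1 (-0.32), C57BL/6 replicate 2 (-0.27) or Hivep3-/- replicate 2 (-0.55). The paralogs Bcl2a1b (1.42) and Bcl2a1d (1.11; 0.97 and not passing without Hivep3-/- replicate 1) rose, and the 6 other genes of the survival list, Bcl2 among them, did not pass. Drosha, the nuclear RNase that starts microRNA processing, was the 1 of 6 microRNA pathway genes that rose, from 99.8, 40.2, 29.6 and 11.8 to 289, 293, 51.4 and 57.1 (log2 1.83 ± 0.22). None of the 15 DNA replication genes tested was called by edgeR or DESeq2 (2 passed an unadjusted p under 0.05), and their median was 0.21. That median covers both genotypes together, and the last comparison gives the genotype difference of these genes.

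The 5 largest rises outside these lists or in them, among genes at 20 CPM or more, were Tcrg-C4 (3.84), Ccr7, Ly6a (Sca-1, 3.69), Adh1 (3.56) and Slfn1 (2.89). Tcrg-C4 is a constant gene of the T cell receptor gamma chain. Of 4 gamma-delta T cell markers 1 could be tested, and it was higher in the transitional cells (2.71). The part of gamma-delta T cells in these values was not tested. The largest falls were Cd8b1 (-2.30), Colq (-2.15), Trib1 (-2.11), Cd8a (-2.04) and Nr4a1. Cd8a and Cd8b1 encode the CD8 co-receptor of double positive thymocytes, the cells from which stage 0 derives. Cd8b1 was at 30.7, 100.5, 33.3 and 37.2 CPM in the Cd24a-positive cells and at 3.06, 7.58, 8.88 and 8.95 in the transitional cells.

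The transitional cells were not uniform. Zbtb16 had no UMI in 154, 44, 213 and 218 of them, which is 629 or 43.2% of all. A zero depends on depth, and these cells had medians of 3251.5, 5064, 5873 and 5920.5 UMIs against 9875.5, 12721, 11434 and 10328 in the 828 cells with Zbtb16. With every cell thinned to 2000 UMIs, Zbtb16 was detected in 29.8% and 25.0% of the C57BL/6 and in 14.7% and 11.4% of the Hivep3-/- transitional cells, against 0% to 2.22% of the Cd24a-positive cells, where it should be lowest, and 30.1% to 45.6% of iNKT2-like cells (defined below). The split was made after the data were seen and is described without a test.

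Cells with no Zbtb16 UMI were those with more stage 0 RNA. Itm2a was at 1788, 2656, 2174 and 1662 CPM in them and at 190.4, 280.1, 230.2 and 287 in cells with Zbtb16, with no overlap; the Cd24a-positive cells above ranged from 1565 to 2182. All 15 stage 0 genes and 9 of the 12 receptor-signal genes were higher in the Zbtb16-zero cells of all 4 libraries. The share of all genes with a common direction was not computed, so this count and those in the next paragraphs have no background. Egr2, for example, was at 206, 154, 433 and 124 against 34.0, 30.2, 109 and 23.8. The survival gene Bcl2 was at 347, 344, 419 and 216 against 96.7, 121, 120.3 and 86.1. Whether cells with no Zbtb16 UMI were stage 0 cells whose Cd24a was missed was not tested.

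Cells with Zbtb16 held the later genes. Of the 12 next-step genes other than Zbtb16, 9 were lower in the Zbtb16-zero cells of all 4 libraries and none was higher. Icos was at 222, 96.9, 113 and 103 CPM without Zbtb16 and at 597, 527, 221 and 175 with it. Id2 went from 184, 57.3, 163 and 190.5 to 646, 648, 415 and 392, and Cxcr6 from 44.3, 8.81, 22.7 and 45.2 to 178, 153, 115 and 98.3. Mcm6, a subunit of the replicative helicase, was at 223, 269, 395 and 355 without and 233, 213, 379 and 275 with Zbtb16, and 12 of the 16 replication genes had no common direction over the libraries.

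The number of early genes detected, a value that the rule itself used, gave a partly similar order and is described only. In all 4 libraries, cells with 6 to 8 early genes had more of 13 of the 15 stage 0 genes and of 9 of 16 replication genes than cells with 4 or 5, and less of 8 of 12 next-step genes and 7 of 10 trafficking genes. Receptor-signal genes were divided, with 6 of 12 higher and 2, Cd5 and Nr4a1, lower in the cells with 6 to 8 in all 4 libraries. Cd5 and Nr4a1 had been higher in the Zbtb16-zero cells of all 4. Of 6 SLAM genes, 3 were higher and 2 lower. Itm2a was at 892, 1062, 1215 and 1258 CPM with 6 to 8 early genes and at 188, 251, 837 and 604 with 4 or 5. At 2000 UMIs per cell, 65.8%, 65.2%, 60.8% and 55.3% of transitional cells had UMIs of at least 3 of 14 stage 0 genes and at least 1 of 8 next-step genes. In the Cd24a-positive precursors, where the next-step genes should be lowest, the share at the same depth was 4 of 9, 6 of 8, 27 of 45 and 23 of 53 cells, so nothing is read from it about expression of both groups in single cells. Of the transitional cells, 22.9%, 22.8%, 36.2% and 38.8% had the stage 0 genes without the next-step genes. Cells with next-step genes but under 3 stage 0 genes were 10.9% and 12.0% in C57BL/6 and 3.02% and 4.71% in Hivep3-/-.

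**Figure D2:**
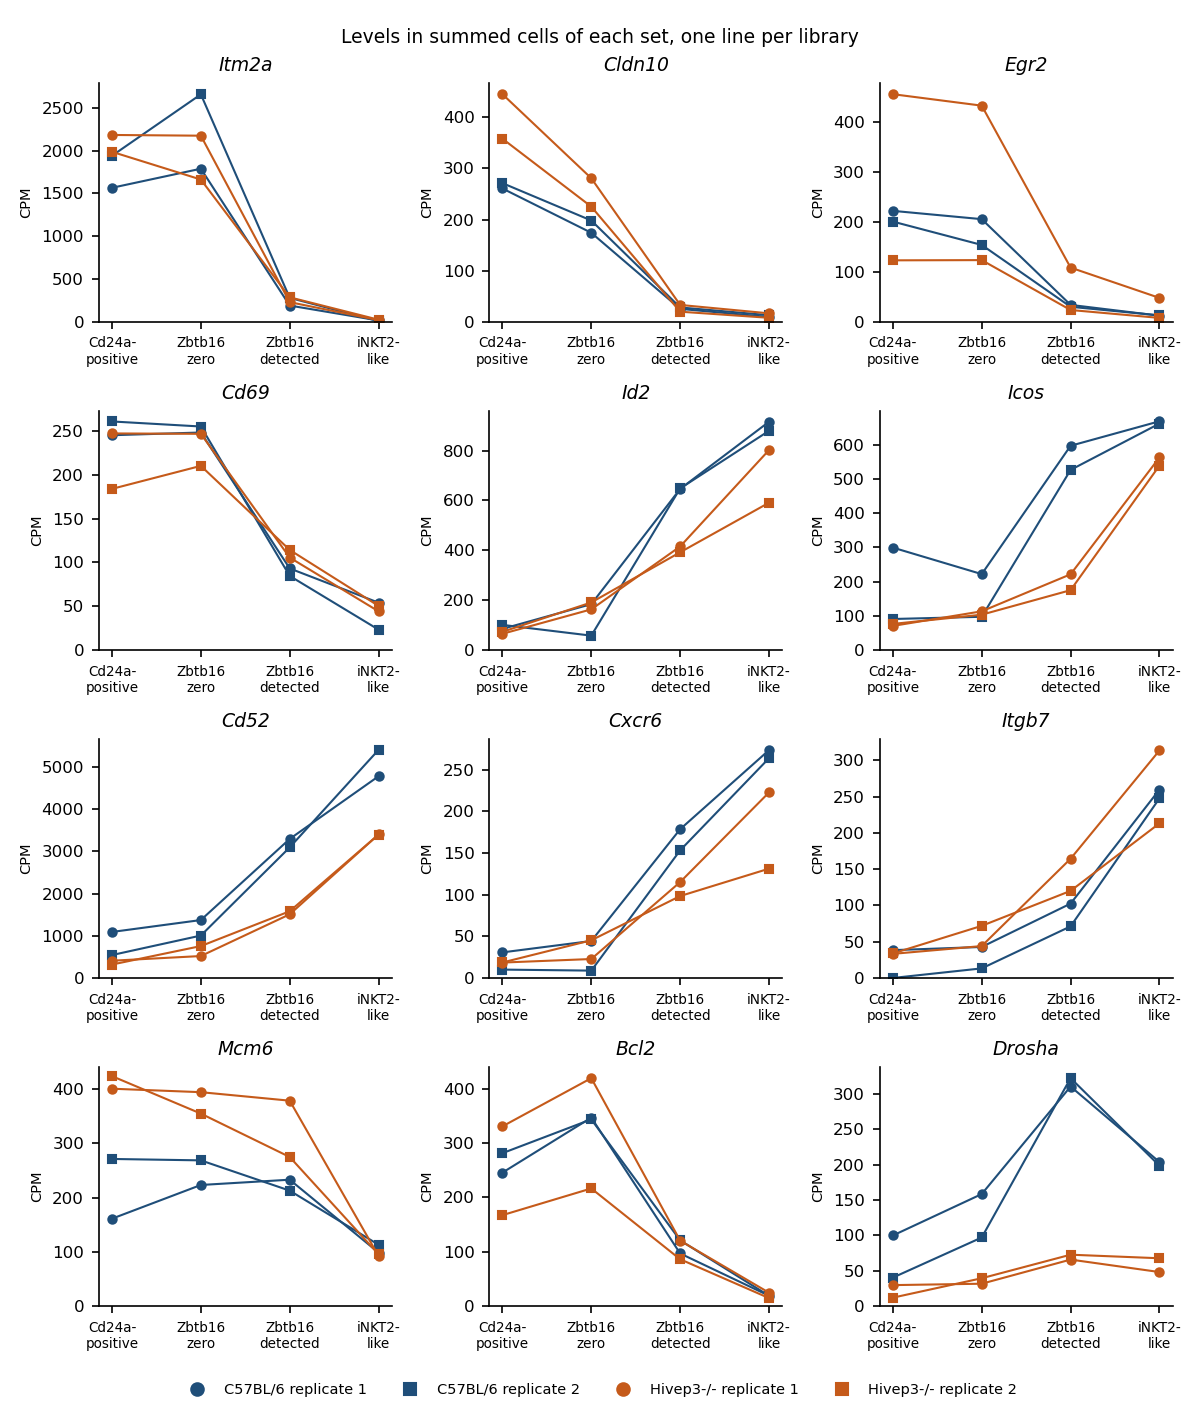
CPM in summed cells (vertical axes, linear and starting at 0) of 12 genes in the Cd24a-positive precursors, the transitional cells without and with a Zbtb16 UMI, and iNKT2-like cells (horizontal axes), with 1 line per library. Itm2a, Cldn10, Egr2, Cd69 and Bcl2 are high in the Zbtb16-zero cells and lower in the Zbtb16-detected cells, while Id2, Icos, Cd52 and Cxcr6 run the other way, and Drosha separates the genotypes in every set.

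At the other end, the transitional cells were set against 629 iNKT2-like cells (355, 79, 109 and 86 per library), which had Il17rb or Il6ra, no Nkg7 and at most 1 early gene. Of 9301 genes, 1337 were higher and 1391 lower in the transitional cells by edgeR's quasi-likelihood test (percent called 29.3, of which 14.4 higher and 15.0 lower), so a call alone is common here. Both sets were again chosen by gates.

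All 15 stage 0 genes were higher in the transitional cells, with a median log2 difference of 1.78 against 0.0044 over all genes tested. Itm2a was at 16.1, 8.69, 19.6 and 25.2 CPM in the iNKT2-like cells, so the transitional cells had log2 5.05 ± 0.16 more (adjusted p = 2.0e-10). Tnfsf8 (CD30 ligand, 4.36), Cnn3 (3.26), Hivep3 (2.55), Cldn10 (2.54), Ldhb (2.24), Jup (2.05), Basp1 (1.78), Sox4 (1.61), Cd81 (1.47), Gsn (1.41), Tox (1.39), Hmgn1 (1.29), Cd28 (0.81) and Ikzf2 (0.76) made up the rest. Hivep3 itself was at 13.2, 21.7, 56.9 and 43.7 in the iNKT2-like cells.

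Receptor-signal genes were higher for 7 of 12 (Pdcd1 2.17, Egr2 2.12, Cd69 1.37, Id3 1.07, Nfatc1 0.87, Egr1 0.68, Nab2 0.47) and lower for Nr4a3 (-1.80). Of the 6 SLAM genes, Slamf6 (1.11), Slamf1 (1.06) and Cd84 (0.42) were higher. Bcl2 was at 131, 150.3, 245 and 147 CPM against 19.0, 18.8, 24.5 and 14.6, a difference of log2 2.86 ± 0.12 (adjusted p = 4.3e-09). In the same list Bax was higher (0.31), and the pro-apoptotic Bcl2l11 (-1.51), Bcl2a1b (-1.70), Bcl2a1d (-1.90) and the kinase gene Pim1 (-1.16) were lower. Slamf1 did not pass without Hivep3-/- replicate 1 (0.86) or 2 (1.12), Egr1 without C57BL/6 replicate 2 (0.63) or Hivep3-/- replicate 1 (0.41), and Bax without C57BL/6 replicate 2 (0.30) or Hivep3-/- replicate 2 (0.24).

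All 15 DNA replication genes tested were higher in the transitional cells, with a median of 1.39, although the rule had removed cells with 2 or more division genes. Mcm6 was at 232, 220.3, 385 and 312 CPM against 98.5, 113, 92.2 and 95.4. Mki67, which marks cells in S, G2 and M phases, was at 1 to 3 CPM in the transitional cells and at 102 to 183 in the dividing cells the rule left out. Of 8 genes of Myc and ribosome biogenesis, 6 were higher, with a median of 0.47.

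Genes of the next steps moved in both directions. Of 6 iNKT2 markers tested that had chosen neither set, 2 were higher and 1 lower in the transitional cells, with a median of 0.063. Of 13 next-step genes, Plac8 (1.0), Gata3 (0.62) and Il13 (0.58) were higher in the transitional cells, and Icos (-1.27), Lmo4 (-1.53), Ccr7 (-0.71), Pdlim4 (-1.14), Rgs1 (-2.12) and Cd44 (-2.40), the sorting marker, were lower. Plac8 turned at 2000 UMIs per cell, where it was lower in the transitional cells (-0.53, adjusted p = 0.035 by edgeR). Zbtb16 did not pass, at log2 -0.33 ± 0.13 with adjusted p = 0.071, nor did Drosha (0.13 ± 0.13), Ccr9 (0.40 ± 0.18), Il4 and Izumo1r; at 2000 UMIs per cell Drosha was lower in the transitional cells (-0.77, adjusted p = 0.018). Of 14 transcription factors 8 were lower (Maf -1.34, Satb1 -1.18, Id2 -1.11, Bcl11b -1.01, Zbtb7b -0.97, Runx3 -0.97, Tcf7 -0.74, Ets1 -0.33), while Tox2 (4.11) and the histone deacetylase gene Hdac7 (0.99) were higher. Il13 lost its call without C57BL/6 replicate 1 (0.81) or 2 (0.36), Pdlim4 without C57BL/6 replicate 2 (-0.68) or Hivep3-/- replicate 2 (-1.07), Hdac7 without Hivep3-/- replicate 1 (0.60) and Ets1 without Hivep3-/- replicate 2 (-0.26).

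Trafficking genes were lower for 6 of 10 and higher for none: Itgae (-2.52), Itgb7 (-1.69), S1pr1 (-1.51), Cd52 (-1.39), Cxcr6 (-1.23) and Itgal (-0.55). Of the receptor-complex genes, Crtam (3.87), Trbc1 (0.82) and Trbc2 (0.35) were higher and Cd247 (-0.94), Cd4 (-0.62), Cd3e (-0.43), Cd3g (-0.39), Lat (-0.37) and Lck (-0.32) lower; Trbc2 did not pass without Hivep3-/- replicate 1 (0.28) or 2 (0.19), nor Cd4 without C57BL/6 replicate 2 (-0.61). The largest rises were Itm2a, Tnfsf8, Fcer1g (the Fc receptor gamma chain, 4.22), Tnni1 (3.95) and Tm6sf1 (3.29). The largest falls were Ctla2a (-3.54), Ly6a (-3.16), the interferon-induced Ifit3b (-3.11) and Ifit3 (-3.03), and the chemokine receptor gene Cxcr3 (-3.02).

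The comparison between genotypes began with the targeted gene. Hivep3 RNA (chr4:119733784-120138045, mm10) was higher, not lower, in the transitional cells of the libraries labelled Hivep3-/-: 419.7 and 221 CPM against 112 and 135 in the C57BL/6 libraries (log2 1.20 ± 0.23, adjusted p = 0.018, from edgeR's quasi-likelihood fit). Since the part of the gene that the allele lacks is not stated in these sources, this level does not check the labels, and the groups below are named by them. Without C57BL/6 replicate 1 the difference was 1.05 and did not pass. A sum over cells cannot tell a shift in the mix of cells, or in their number of a type, from less RNA per cell.

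Of 9475 genes tested in the transitional cells, 133 were higher and 199 lower in Hivep3-/- than in C57BL/6 (percent called 3.50, of which 1.40 higher and 2.10 lower, and 17.0 at an unadjusted p under 0.05). None of the 332 was sex-linked by the list used, and 5 were gene segments of the T cell receptor. Sex differed within the C57BL/6 group, so the lack of sex-linked calls does not show that sex played no part in the 332. Without C57BL/6 replicate 1, the library that differed in sex and in Trac, 106 genes were called, and without Hivep3-/- replicate 2 there were 559. Differences below are Hivep3-/- minus C57BL/6.

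Genes of the steps after stage 0 were mostly lower in Hivep3-/-. Of 12 such genes 8 were lower in Hivep3-/- and none was higher, with a median log2 difference of -1.12 against 0.03 over all genes tested. Il13 was at 113 and 99.1 CPM in C57BL/6 and at 6.12 and 5.16 in Hivep3-/- (log2 -4.41 ± 0.21, adjusted p = 2.2e-06). Il4, its neighbour in the type 2 cytokine locus on chromosome 11, 12655 bases away, was at 190.4 and 214 against 50.8 and 44.4 (-2.26 ± 0.15). The gut-homing chemokine receptor gene Ccr9 was at 154 and 176 against 12.6 and 5.16 (-4.37 ± 0.27, adjusted p = 1.1e-05).

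The LIM-domain cofactor gene Lmo4 behaved like Ccr9 in size, at 433 and 339 CPM in C57BL/6 and 30.3 and 31.7 in Hivep3-/- (log2 -3.82 ± 0.18). Icos was at 545 and 469.7 against 176 and 141 (-1.86 ± 0.15), and Plac8 at 482 and 450.5 against 184 and 237 (-1.32 ± 0.16). Zbtb16 was at 316 and 267 against 189 and 160.0 (-0.93 ± 0.14, adjusted p = 0.0048). Ccr7 was lower by less (-0.76 ± 0.17, adjusted p = 0.033). Without C57BL/6 replicate 1, Zbtb16 stood at -0.81 (adjusted p = 0.083) and Ccr7 at -0.61 and neither passed, and without Hivep3-/- replicate 1 Ccr7 stood at -0.66 and did not pass. Gata3, Izumo1r, Cd44 and Rgs1 did not pass, with values from -0.72 to 0.04.

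The promoters of the most changed of these genes, and of the Bcl2a1 paralogs described below, are shown with RefSeq sequence (GRCm38.p6), from 250 bases before to 50 after the annotated start. Capitals mark 1 match to a motif that was searched on both strands. For Il13 (chr11:53634653-53634952, minus strand) it is the GATA motif AGATAA, for Ccr9 (chr9:123766961-123767260, plus strand) an E protein motif (CACCTG or CAGCTG, here on the opposite strand), and for Bcl2a1b (chr9:89199023-89199322, plus strand) and Bcl2a1d (chr9:88731801-88732100, minus strand) the Egr motif GCGNGGGCG, also on the opposite strand.
Il13: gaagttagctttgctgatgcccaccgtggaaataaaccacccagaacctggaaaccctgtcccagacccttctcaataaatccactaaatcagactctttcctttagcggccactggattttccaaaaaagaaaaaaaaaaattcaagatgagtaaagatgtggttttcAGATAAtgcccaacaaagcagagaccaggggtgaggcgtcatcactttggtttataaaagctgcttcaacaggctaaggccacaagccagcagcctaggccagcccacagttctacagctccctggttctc
Ccr9: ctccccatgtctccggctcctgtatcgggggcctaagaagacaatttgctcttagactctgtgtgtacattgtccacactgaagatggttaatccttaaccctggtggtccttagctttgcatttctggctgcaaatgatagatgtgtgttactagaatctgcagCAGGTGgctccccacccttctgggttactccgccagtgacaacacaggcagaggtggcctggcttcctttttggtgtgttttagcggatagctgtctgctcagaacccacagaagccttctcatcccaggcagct
Bcl2a1b: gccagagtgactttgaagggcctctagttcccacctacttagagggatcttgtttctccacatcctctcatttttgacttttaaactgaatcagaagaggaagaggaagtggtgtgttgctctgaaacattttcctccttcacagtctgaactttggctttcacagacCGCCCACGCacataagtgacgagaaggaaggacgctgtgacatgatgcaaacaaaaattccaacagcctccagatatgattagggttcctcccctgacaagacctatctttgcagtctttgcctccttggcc
Bcl2a1d: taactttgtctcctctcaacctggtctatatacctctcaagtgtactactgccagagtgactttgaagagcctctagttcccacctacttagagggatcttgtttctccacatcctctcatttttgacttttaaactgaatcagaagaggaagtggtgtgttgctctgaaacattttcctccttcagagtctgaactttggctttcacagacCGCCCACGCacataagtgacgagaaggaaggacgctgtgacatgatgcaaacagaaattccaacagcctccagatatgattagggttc

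These matches are descriptions of letters. Of 32851 promoters of this length, AGATAA was found in 11.2%, CACCTG or CAGCTG in 32.9%, GCGNGGGCG in 5.55% and the kappaB motif in 8.46%. Of the 19 named genes that were lower in Hivep3-/-, 13 had a promoter in the table, and AGATAA was in 2 of them, the E protein motif in 5, GCGNGGGCG in 4 and kappaB in 1. Of the 17 that were higher, 13 had a promoter, with 4, 9, 0 and 1. These genes had 21 promoters in the lower group and 19 in the higher group, and a gene counted where any of its promoters matched. The percentages above are per promoter, so the counts are not on the same scale. The motif in the Bcl2a1b window starts 82 bases before the annotated start and that in the Bcl2a1d window 38 bases before; these windows share an unbroken run of 84 bases, so they are copies rather than separate cases.

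Of the stage 0 genes 7 of 15 were higher in Hivep3-/- and none was lower, with a median of 0.53; this list was named on these samples. Ikzf2 was at 322 and 358 CPM in Hivep3-/- against 98.9 and 98.5 (log2 1.61 ± 0.15, adjusted p = 0.00015). Cldn10 was at 137 and 115 against 45.9 and 50.7 (1.21 ± 0.16), and Itm2a at 1041 and 925 against 411 and 594 (0.79 ± 0.17, adjusted p = 0.032). Jup (1.15), Tnfsf8 (0.98) and Sox4 (0.71, adjusted p = 0.046) were the others beside Hivep3. Without C57BL/6 replicate 1, Itm2a stood at 0.54, Tnfsf8 at 0.92 and Sox4 at 0.90 and none of them passed. Tnfsf8, Jup and Sox4 also lost their calls without C57BL/6 replicate 2 (1.02, 0.87 and 0.56) or Hivep3-/- replicate 1 (0.71, 0.81 and 0.55). Ldhb, Cd28, Basp1 and Hmgn1, equally part of the stage 0 list, lay between -0.06 and 0.05.

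Of the 12 receptor-signal genes only Ikzf3 passed the test, with 8 at an unadjusted p under 0.05 and 2 by DESeq2 (Ikzf3: 1.05 ± 0.19, adjusted p = 0.011), although all 12 were higher in direction, with a median of 0.85. Hivep3-/- replicate 1 stood apart in these genes. Egr2 was at 244 CPM there and at 70.2 in Hivep3-/- replicate 2, against 57.8 and 46.6 in C57BL/6 (log2 1.37 ± 0.41, adjusted p = 0.099). Egr1 was at 315 and 132 against 96.7 and 88.0, and Nr4a1 at 193 and 64.0 against 60.6 and 41.4, so the second Hivep3-/- library was close to C57BL/6. Egr2 stood at 1.95 without Hivep3-/- replicate 2 and at 0.28 without Hivep3-/- replicate 1. It passed with no low-count filter (1.39, adjusted p = 7.4e-12 by edgeR) and with a replicate block, although the Hivep3-/- libraries lay far apart. Ikzf3 itself did not pass without C57BL/6 replicate 2 (0.87).

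Among genes of the receptor complex, Cd247 was higher in Hivep3-/-, at 532 and 473 CPM against 261 and 209.8 (log2 0.91 ± 0.14, adjusted p = 0.0060). Ubash3b, a phosphatase that dampens receptor signals, was at 139 and 127 against 45.9 and 26.8 (1.62 ± 0.21). Crtam, an adhesion receptor of activated lymphocytes, was at 58.5 and 44.7 against 5.03 and 6.99 (3.0 ± 0.27). Cd4 was lower, at 21.1 and 10.3 against 64.5 and 44.9 (-2.00 ± 0.29). Cd247 did not pass without C57BL/6 replicate 2 (0.77), nor Cd4 without C57BL/6 replicate 1 (-1.69). The other 10 genes of the list did not pass by edgeR. Of all 14 genes of the list, 12 were higher in direction, with a median of 0.43. At an unadjusted p under 0.05 by edgeR, 8 were higher and 1 lower, and DESeq2 called 4 higher and 1 lower. No SLAM gene passed by edgeR or DESeq2, with values from -0.03 to 0.85 and 3 of 6 at an unadjusted p under 0.05.

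Of 14 transcription factors, 3 were lower and 1 was higher. Id2 was at 309.8 and 298 CPM in Hivep3-/- against 582 and 569.9 (log2 -1.10 ± 0.13, adjusted p = 0.00096), Maf at 11.3 and 17.6 against 37.0 and 32.1 (-1.45), and the chromatin organiser gene Satb1 at 114 and 66.1 against 162 and 236 (-1.31). Hdac7, a class IIa histone deacetylase, was at 189 and 104 against 50.1 and 28.0 (1.65 ± 0.28, adjusted p = 0.0084). Maf did not pass without C57BL/6 replicate 1 (-1.34), nor Satb1 without C57BL/6 replicate 2 (-1.03). Tcf7, Runx1, Runx3, Ets1 and Bcl11b did not pass.

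In the trafficking list Cd52 (1095 and 1197 against 3027 and 2816 CPM, log2 -1.53 ± 0.15) and Cxcr6 (76.5 and 73.6 against 159.9 and 134, -1.15 ± 0.15) were lower. S1pr1, the sphingosine phosphate receptor used for thymic exit, was higher at 32.8 and 36.1 against 13.6 and 8.74 (1.37 ± 0.26, adjusted p = 0.016), a call lost without C57BL/6 replicate 1 (1.79) or 2 (1.17). Markers of mature conventional T cells, a list that includes S1pr1 and Igfbp4, had a median of 1.01 over the 5 tested, of which only S1pr1 was called. Their summed level was 561.5 and 537.9 in C57BL/6 and 959 and 888 in Hivep3-/-. Igfbp4, whose levels are given with the last comparison, made up most of this sum in every library. The part of such cells in these differences was not tested.

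Bcl2a1b was at 55.4 and 44.7 CPM in Hivep3-/- against 167 and 151 (log2 -1.85 ± 0.16), and Bcl2a1d at 42.2 and 31.3 against 123 and 123 (-1.92 ± 0.17). They encode near-identical members of the anti-apoptotic A1 family, so their shared reads are uncertain and they count as a single observation. The other 6 survival genes did not pass, with values from -0.50 to 0.38. Drosha was the 1 of 6 microRNA pathway genes that differed, at 51.4 and 57.1 against 289 and 293 (-2.60 ± 0.15, adjusted p = 1.0e-05), while Ago2, Dgcr8, Dicer1, Tarbp2 and Xpo5 lay between -0.25 and 0.53. None of the 15 replication genes tested was called by edgeR or DESeq2 (4 passed an unadjusted p under 0.05), and their median was -0.04.

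Over the lists and all other genes, the largest rises among genes at 20 CPM or more were Htra3 (53.0 and 65.4 CPM in Hivep3-/- against 5.03 and 6.99, log2 3.20), Crtam, Klrb1a (2.69), Poc1a (2.39) and Tnni1 (102 and 97.0 against 14.7 and 21.6, 2.35). The largest falls were Il13, Ccr9, the unconventional myosin gene Myo6 (7.04 and 2.41 against 64.8 and 55.9, -3.83), Lmo4 and the alcohol dehydrogenase gene Adh1 (6.43 and 5.16 against 69.1 and 65.3, -3.70). Of 11 iNKT1 markers tested 4 were higher and none lower: Ms4a4b (1.67), Fcer1g (1.40), Il2rb (1.28) and Cd7 (0.78). Tbx21 and Ccl5, which define iNKT1 cells, did not pass, at -1.25 and -0.49. Of 2 gamma-delta T cell markers tested, 1 was lower in Hivep3-/- and none was higher, with a median of -1.63.

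**Figure D3:**
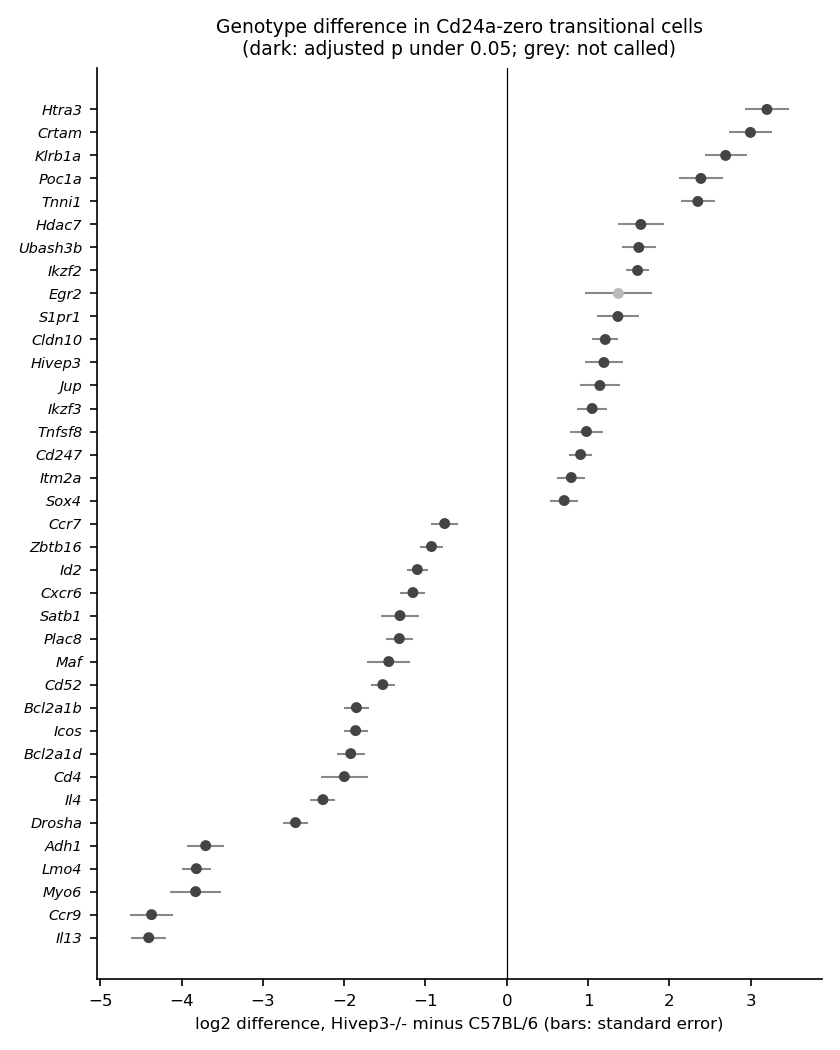
Log2 difference of Hivep3-/- minus C57BL/6 (horizontal axis, with standard error bars) for the named genes (vertical axis) in the transitional cells, dark where the adjusted p was under 0.05. Il13, Ccr9, Myo6, Lmo4 and Adh1 lie furthest to the left, at -4.41 to -3.70, and Htra3 and Crtam furthest to the right, at 3.20 and 3.0; Egr2 is the pale point, which did not pass.

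The genotypes differed in their share of Zbtb16-zero cells, which were 154 of 556 and 44 of 162 transitional cells in C57BL/6 but 213 of 377 and 218 of 362 in Hivep3-/-. The comparison was therefore repeated within each kind of cell, an alternative chosen after the data were seen. Among cells with Zbtb16, 195 of 8452 genes were called (percent called 2.31), and among cells without it 9 of 7420 (percent called 0.121).

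The stage 0 genes did not behave alike within these cells. Of the 7 called above, Ikzf2 (log2 1.81 ± 0.15, adjusted p = 0.00026) and Jup (1.28 ± 0.24, adjusted p = 0.025) passed among cells with Zbtb16, and none passed among cells without it. Jup was at 129 and 85.4 CPM in the Hivep3-/- cells with Zbtb16 against 47.5 and 29.6 in C57BL/6. Sox4 (151 and 111 against 75.9 and 64.5), Hivep3 (288 and 134 against 93.4 and 107) and Tnfsf8 (37.8 and 21.2 against 17.3 and 12.8) did not pass there. Their differences were log2 0.75 ± 0.18, 0.94 ± 0.27 and 0.80 ± 0.30. Itm2a differed by log2 0.01 ± 0.21 among cells with Zbtb16 and by -0.30 ± 0.21 among cells without it, and Cldn10 by -0.12 ± 0.26 and 0.36 ± 0.19, none of which passed. The standard errors do not exclude small differences. Zbtb16 itself, among the cells that had it, differed by -0.26 ± 0.14 (adjusted p = 0.45 by edgeR). Each of these cells was chosen for a Zbtb16 UMI, so this value cannot show whether Zbtb16 differed. Detection of Zbtb16 depends on depth and on its level, which was lower in Hivep3-/-. Each kind may therefore hold unlike cells in each genotype, which limits all values of this split.

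Other genes kept their difference in both kinds of cell. Lmo4 was lower by log2 -3.48 ± 0.18 with Zbtb16 and by -2.86 ± 0.32 without it (adjusted p = 2.5e-05 and 0.0014). Drosha was lower by -2.33 ± 0.15 and -2.03 ± 0.27 (5.9e-05 and 0.0043), at 310.5 and 322 CPM in C57BL/6 cells with Zbtb16 against 65.7 and 72.6, and at 158 and 96.9 against 31.5 and 39.3 without it. Ccr9 was lower by -6.22 and -2.10, and Ubash3b was higher by 1.78 and 2.05; each passed in both. In the Hivep3-/- cells with Zbtb16, Ccr9 was at 4.73 and 0.

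Icos (-1.64 ± 0.15), Id2 (-0.82 ± 0.13), Cd52 (-1.18 ± 0.15), Ikzf2 (1.81 ± 0.15), Crtam (3.49 ± 0.43) and Il13 (-3.95 ± 0.23) passed among cells with Zbtb16. Without it the first 5 stood at -0.78 ± 0.27, 0.28 ± 0.31, -1.0 ± 0.22, 0.64 ± 0.19 and 1.44 ± 0.32 and did not pass, and the difference between the kinds of cell was not tested.

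**Figure D4:**
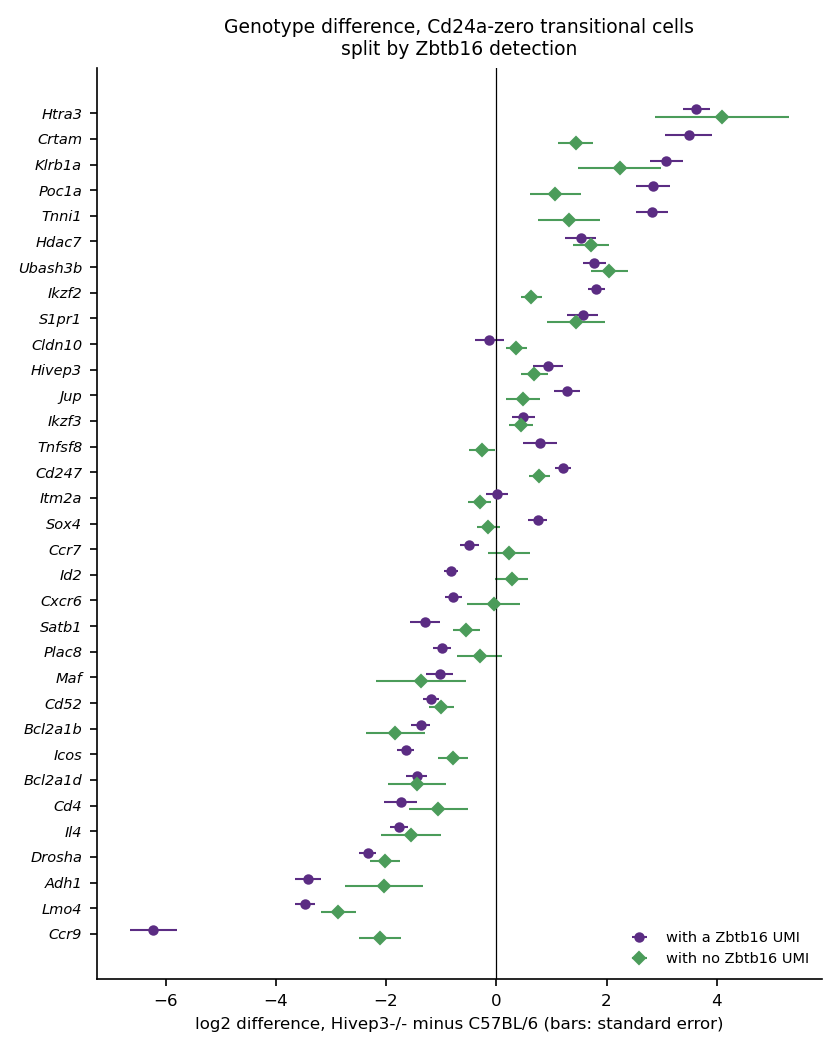
Log2 difference of Hivep3-/- minus C57BL/6 (horizontal axis, with standard error bars) for the named genes called in all transitional cells, shown separately for cells with a Zbtb16 UMI (circles) and with none (diamonds). Itm2a and Cldn10 lie between -0.30 and 0.36 in both, Ikzf2 and Jup at 1.81 and 1.28 in cells with Zbtb16, whereas Lmo4 and Drosha lie below -2.0 in both.

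The last comparison asked whether genotype acted on the transitional cells as it did on the Cd24a-positive precursors. The difference of the differences was tested in a model with both sets, which share their mice; it called 54 of 8454 genes (26 more positive and 28 more negative in the transitional cells, percent called 0.639, of which 0.308 and 0.331, and 8.37 at an unadjusted p under 0.05). DESeq2 called 3 of these genes, Ccr9, Lmo4 and Rasgrp1. The C57BL/6 precursor sets held 36 and 20 cells, which limits every value here.

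Ccr9 was at 115 and 50.2 CPM in the Cd24a-positive precursors of C57BL/6 and at 90.5 and 47.3 in those of Hivep3-/-, with overlap, whereas the transitional cells stood at 154 and 176 against 12.6 and 5.16. The difference of the differences was log2 -3.95 ± 0.38 (adjusted p = 6.6e-22). Lmo4 was at 76.7 and 100.5 against 49.9 and 35.5 in the precursors (log2 -2.72 ± 0.38, adjusted p = 2.5e-09). In C57BL/6 both genes were thus higher in the transitional cells than in the precursors and in Hivep3-/- neither was.

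Rasgrp1, the nucleotide exchange factor that links the receptor to Ras, went the other way. It was at 499 and 432 CPM in C57BL/6 precursors and 301 and 316 in Hivep3-/- precursors, but at 89.3 and 82.8 against 152 and 154 in the transitional cells (log2 1.34 ± 0.21, adjusted p = 4.4e-07). Igfbp4 was at 23.0 and 10.0 against 177 and 159 in the precursors and at 456 and 484 against 619 and 717 in the transitional cells (-2.85 ± 0.51). Among stage 0 genes Itm2a (0.64 ± 0.13), Ikzf2 (1.03 ± 0.21), Tox (0.71 ± 0.17) and Jup (1.54 ± 0.34) had a more positive genotype difference in the transitional cells. Each of these 4 lost its call with libraries left out: Tox with any of them (0.51 to 0.79), Itm2a with any but C57BL/6 replicate 2 (0.42 to 0.59), and Ikzf2 (0.28 and 0.82) and Jup (0.93 and 1.27) without C57BL/6 replicate 1 or Hivep3-/- replicate 2. Igfbp4 did not pass without C57BL/6 replicate 2 (-2.44). Lmo4 did not pass with at least 3 early genes in place of 4 (-1.36) or at 2000 UMIs per cell (-1.78), nor Rasgrp1 at that depth (0.83). None of the 15 DNA replication genes had a value above 0, with a median of -1.26 against -0.075 over all genes tested. Of them only Hells was called by edgeR and none by DESeq2, while 9 were lower at an unadjusted p under 0.05 by edgeR. For Zbtb16 (0.15 ± 0.35), Drosha (-0.66 ± 0.47), Cd247 (0.43 ± 0.24) and Hivep3 (0.48 ± 0.24) the test did not pass.

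**Figure D5:**
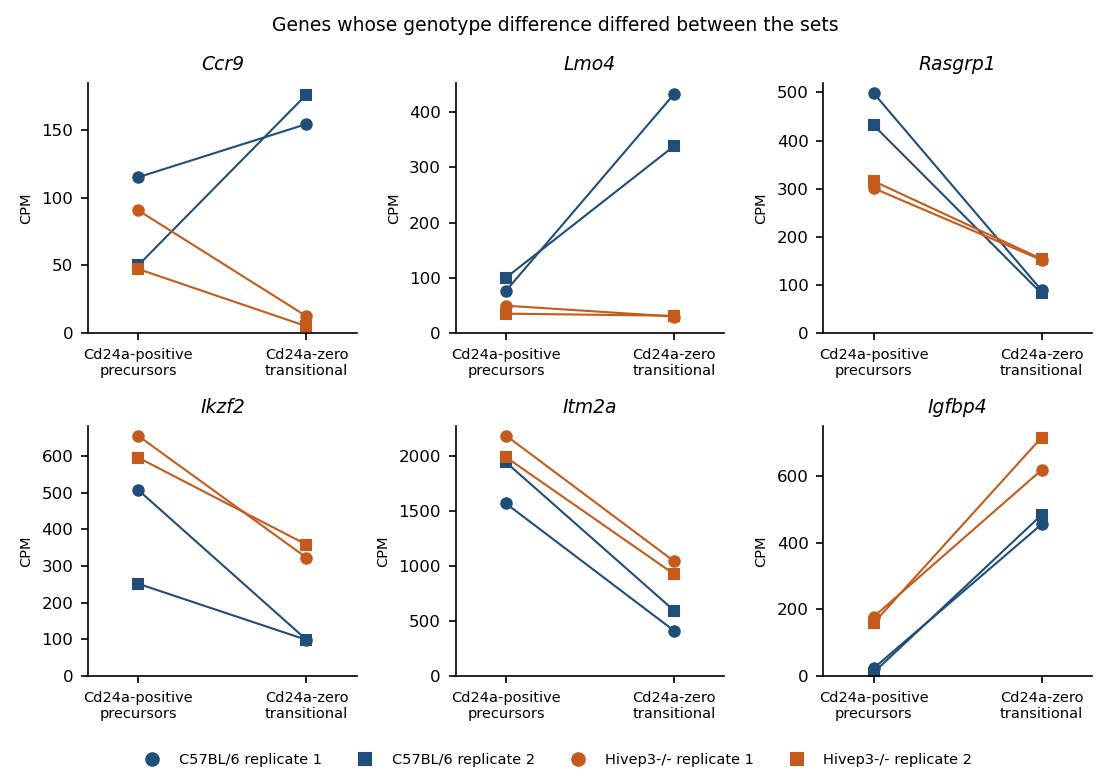
CPM (vertical axes, linear and starting at 0) of 6 genes in Cd24a-positive precursors and Cd24a-zero transitional cells (horizontal axes), with 1 line per library. The Ccr9 and Lmo4 lines of the genotypes separate in the transitional cells, at 154 and 176 against 12.6 and 5.16 for Ccr9, while the Rasgrp1 lines cross.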

How the data were processed

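Droplet-based RNA libraries of tetramer-sorted thymic cells were deposited by the authors as matrices of UMI counts per gene and cell, 1 per mouse. They were made with Cell Ranger 3.1.0 on mm10, and Seurat 3.1.4 is also named in the submitters' processing notes. Deposited counts were used without normalization, batch correction or imputation. UMIs were summed per library and cell set, and genes that passed filterByExpr were tested with edgeR 4.0.16 (TMM scaling, glmQLFit and glmQLFTest, p-values adjusted by Benjamini-Hochberg across every tested gene) in R 4.3.3. Genotypes were compared over 2 mice against 2. Within-mouse comparisons had the library as a block. Standard errors were taken from the quasi-likelihood F. Levels are counts of a gene per 1000000 UMIs of the summed set (CPM), before TMM scaling, and differences are on the log2 scale after it. Shares of cells have exact Clopper-Pearson 95% intervals and exact permutation tests. By its own threshold Scrublet marked 7, 14, 11 and 57 cells per library, too few in C57BL/6 replicate 1 (of 7231 kept cells) to have worked; no doublets were removed in the main analysis, and the 5% of cells with the highest score were removed in an alternative, which took 6, 0, 5 and 1 of the transitional cells per library. For thinning, each cell was reduced to 2000 UMIs, shallower cells were left out (502, 91, 82 and 75 in the same order) and the rule was applied anew. Gene positions come from GENCODE vM21 (mm10), and promoters from a RefSeq table (GRCm38.p6) that does not hold every gene.

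The genes named are Hivep3, Drosha, Zbtb16, Ccr9, Egr2 and Cd247 whatever their result, the called genes of 9 lists (stage 0, receptor signals, receptor complex, SLAM, next steps, transcription factors, trafficking, survival, microRNA), and in each comparison the 5 largest rises and falls at a mean of at least 20 CPM with no overlap, or with the same sign in all 4 mice. Sex-linked genes and receptor segments were left out. Mcm6, Mki67, Igfbp4, Rasgrp1 and the iNKT1 markers were named after their values were seen. The cells, the lists and the tests were chosen with earlier results of these data known. On simulated counts for the genotype test, 96% of 100 genes changed by log2 2 and 62% of 100 changed by log2 1 were recovered; for the difference of the differences it was 37% and 1%.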

Additional observations from a re-analysis of the deposited data

Results flagged for a closer look

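The genotype difference in the transitional cells differed from that in the Cd24a-positive precursors, by the test of the difference itself, for 18 of the named genes. The values are log2 differences of the differences, positive where the Hivep3-/- minus C57BL/6 difference was more positive in the transitional cells. Ccr9 (-3.95), Lmo4 (-2.72) and Rasgrp1 (1.34) were called by edgeR's quasi-likelihood test and by DESeq2, and remained called by edgeR with each library left out.

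Among stage 0 and receptor-signal genes the values were 1.54 for Jup, 1.04 for Egr2, 1.03 for Ikzf2, 0.82 for Nfatc1, 0.71 for Tox and 0.64 for Itm2a. Izumo1r stood at 0.91 and the SLAM receptor gene Cd84 at 0.97. The interleukin 4 receptor gene Il4ra (1.85) was at 76.7 and 80.4 CPM in C57BL/6 precursors and at 72.1 and 47.3 in Hivep3-/- precursors, but at 12.0 and 11.1 against 38.3 and 30.3 in the transitional cells. The potassium channel gene Kcna3 (1.58) and Arid5b (1.28) had the same sign, and Igfbp4 (-2.85) the opposite one. Several of these calls are weak. Il4ra and Kcna3 passed in no alternative except DESeq2 size factors in edgeR, and Kcna3 stood at -0.42 at 2000 UMIs per cell. Egr2, Nfatc1, Tox, Izumo1r and Cd84 lost their calls whichever library was left out, and Arid5b with any left out but C57BL/6 replicate 1.

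Hells (-3.89), Zmiz1 (-2.42) and Itgae (5.11) each involve a summed precursor set with 0 UMIs in 1 library, so the size of these values depends on the prior count of the fit.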

How the results depend on the processing

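Counts of called genes moved with depth, filters and libraries. For the genotype comparison of the transitional cells (332 genes) they were 826 with no low-count filter, 20 at 2000 UMIs per cell, 195 among cells with Zbtb16 and 9 among cells without it, and 106 to 559 when each library was left out in turn; DESeq2 called 223. Sox4 also lost its call with DESeq2. Against the Cd24a-positive precursors (768 genes) the counts were 397 with DESeq2, 1209 with at least 3 and 446 with at least 5 early genes, 193 at 2000 UMIs, 461 in the C57BL/6 libraries alone, and 418 to 679 with a library left out. Against iNKT2-like cells (2728 genes) they were 1583 with DESeq2 and 1546 at 2000 UMIs. For the difference of the differences (54 genes) they were 3 with DESeq2, 18 with at least 3 early genes, 4 at 2000 UMIs and 17 to 34 with a library left out. The share of dividing cells differed by -18.0 percentage points as deposited and by -0.896 at 2000 UMIs, and the share of transitional cells by 0.754 to 4.01 points with a library left out. Fewer genes could be tested at 2000 UMIs; the cause of the other moves was not tested.

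The replicate numbers are not said to mark a batch. Deviations of replicate 1 from the genotype means correlated at r = 0.237 over 5264 genes, across genes that are not independent. With a replicate block the genotype comparison called 1082 genes, the 332 among them, and Egr2 passed (1.31, adjusted p = 1.9e-14 by edgeR); the difference of the differences called 63.

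Single genes that turned direction were these, as log2. By genotype, Cldn10 stood at -0.12 in cells with Zbtb16, and Itm2a at -0.30, Tnfsf8 at -0.26, Sox4 at -0.15, Ccr7 at 0.23 and Id2 at 0.28 in cells without it. Against the precursors, at 2000 UMIs, Cd247 was at -0.40, Lmo4 at -0.97, Tnfsf8 at 0.46 and Hmgn1 at 0.28; in C57BL/6 alone, Ccr9 was at 1.06 (which passed) and Itgae at -0.11; and in Hivep3-/- alone, Lmo4 was at -0.36. Against iNKT2-like cells, at 2000 UMIs, Drosha was at -0.77 and Plac8 at -0.53, which both passed (adjusted p = 0.018 and 0.035 by edgeR), Ccr9 at -0.40 and Il13 at -0.15; in C57BL/6 alone, Zbtb16 was at 0.0073; and in Hivep3-/- alone, Drosha was at -0.34, Ccr9 at -0.44 and Il13 at -0.12. For the difference of the differences, at 2000 UMIs, Zbtb16 was at -5.59, Kcna3 at -0.42 and Jup at -1.10; with a library left out, Zbtb16 ranged from -0.24 (without C57BL/6 replicate 1) to 0.28, with -0.04 without Hivep3-/- replicate 1, and Drosha from -1.65 to 0.12. Over all alternatives run, 421 of 509 values of the named genes by genotype, 696 of 835 against the precursors, 937 of 994 against iNKT2-like cells and 151 of 260 for the difference of the differences kept both direction and side of the threshold.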
